A study of Mus musculus with 6 samples.

Results

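Transcripts of 10 Fanconi anaemia genes were measured in V720, a breast cancer cell line of the mouse whose tissue label is mammary epithelium. The genes encode 7 subunits of the core complex (Fanca, Fancb, Fancc, Fance, Fancg, Fancl and Fancm), the FANCD2-FANCI pair (Fancd2 and Fanci) and the ubiquitin-conjugating enzyme of the pathway (Ube2t). They were chosen by name, as all probe sets annotated with only that gene's symbol, which gave 24 of 34945 such probe sets and 10 of 18193 genes. The study compared 3 cultures given vehicle with 3 given 1 µM PD0332991 for 24 h, all grown in serum-containing medium and described as biological triplicates. PD0332991 (palbociclib) inhibits CDK4 and CDK6, the kinases that inactivate the retinoblastoma protein by phosphorylation, so that E2F transcription factors can switch on S phase genes. No untreated cells, other dose or other time was analysed here, and a single cell line stands for both groups.

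The Fanconi anaemia pathway repairs DNA crosslinks that stall replication forks. FANCM helps to bring the core complex to the lesion, and the core complex, in which FANCL is the ubiquitin ligase, works with UBE2T to attach ubiquitin to FANCD2 and FANCI. The modified pair clamps onto DNA, and nucleases, translesion polymerases and homologous recombination then remove the crosslink and restore the fork. Inherited loss of most of these genes causes bone marrow failure and cancer, and several partners of the pathway are breast cancer genes.

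Of the 10 genes, 9 had a promoter window in the RefSeq table (mouse assembly GRCm38.p6), which spans 250 bases before to 50 after each gene's start. The stretches below run from 210 bases before to 30 after the start. They are shown because each holds a match to an E2F-type element, in genes that were and were not called lower with the inhibitor. Capitals mark matches on either strand to the 8-letter elements TTTCCCGC, TTTCGCGC, TTTGCCGC or TTTGGCGC, or to the 7 letters that remain of any of these without the leading T. Every 8-letter match thus holds a 7-letter match.
Fanci (chr7:79392128-79392367, plus strand): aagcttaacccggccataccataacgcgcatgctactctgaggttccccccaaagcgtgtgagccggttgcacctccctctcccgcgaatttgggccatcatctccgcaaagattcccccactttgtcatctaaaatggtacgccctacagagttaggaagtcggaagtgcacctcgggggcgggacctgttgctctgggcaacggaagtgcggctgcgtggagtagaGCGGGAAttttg
Ube2t (chr1:134962355-134962594, plus strand): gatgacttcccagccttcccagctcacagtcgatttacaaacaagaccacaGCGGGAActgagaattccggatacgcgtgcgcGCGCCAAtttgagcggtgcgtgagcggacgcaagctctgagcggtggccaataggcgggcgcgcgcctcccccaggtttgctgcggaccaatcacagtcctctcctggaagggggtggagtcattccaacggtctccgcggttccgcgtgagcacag
Fancb (chrX:164980382-164980621, plus strand): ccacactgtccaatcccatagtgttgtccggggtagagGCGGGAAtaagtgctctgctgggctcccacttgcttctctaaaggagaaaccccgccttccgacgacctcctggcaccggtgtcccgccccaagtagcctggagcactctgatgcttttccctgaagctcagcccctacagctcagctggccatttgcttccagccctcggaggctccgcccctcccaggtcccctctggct
Fancm (chr12:65075393-65075632, plus strand): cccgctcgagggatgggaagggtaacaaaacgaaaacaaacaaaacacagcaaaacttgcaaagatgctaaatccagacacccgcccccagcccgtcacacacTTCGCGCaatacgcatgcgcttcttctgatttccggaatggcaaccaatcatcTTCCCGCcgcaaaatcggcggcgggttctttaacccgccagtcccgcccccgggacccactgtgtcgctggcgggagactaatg
Fancg (chr4:43010272-43010511, minus strand): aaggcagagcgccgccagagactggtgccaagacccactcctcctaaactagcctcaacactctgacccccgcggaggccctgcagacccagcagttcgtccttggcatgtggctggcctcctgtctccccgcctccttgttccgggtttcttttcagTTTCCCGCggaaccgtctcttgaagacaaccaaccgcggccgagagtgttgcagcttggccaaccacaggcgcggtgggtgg

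Arrays had median intensities of 69.8 to 72.9 over all probe sets. Vehicle replicate 1 stood apart on the hybridization spike-in controls, with a mean log2 value of 9.74 against 9.94 to 10.05 on the other 5 arrays, and values centred on these controls are therefore also given without it. Arrays of the same group correlated at 0.9969 to 0.9973 across genes. Epithelial markers had summed intensities of 50411 to 51941 with vehicle and 52653 to 54055 with PD0332991 over 8 genes, of which Cldn4 was called higher, and the keratin gene Krt19 stood at 1.00 and 1.42. Summed intensities of 5 basal markers (622 to 682 and 668 to 721), 6 fibroblast markers (326 to 377 and 292 to 317), 5 endothelial markers (120 to 136 and 133 to 147) and 3 adipocyte markers (23.6 to 43.8 and 31.2 to 47.0) are given for the same groups and cannot be set against other lists, since probe sets differ in scale; of these Pdgfra was called lower. Leukocyte markers summed to 387 to 409 with vehicle and 487 to 518 with PD0332991 over 6 genes, of which 3 were called higher (none after centring on the spike-in controls, and 1 to 3 when 1 array was left out), while Cd3e stood at 3.79 and 1.33. Their part in the results below was not tested. A further 14 genes of S phase and licensing had summed intensities of 38906 to 40139 with vehicle and 20621 to 20962 with PD0332991.

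PD0332991 was compared with vehicle to ask how CDK4 and CDK6 inhibition affects the transcripts of the crosslink repair pathway. Transcripts of 6 of the 10 genes fell and none rose: Fanci, Ube2t, Fanca, Fancb, Fancm and Fancl. The falls ranged from 2.61-fold (Fanci) to 1.33-fold (Fancl) on the brightest probe set of each gene. For Fancd2 the call depended on the probe set, and Fancc, Fance and Fancg did not pass the test. Over all genes 11.2% were called lower and 9.81% higher by limma (adjusted p under 0.05). The median log2 fold change of the 10 genes was -0.44, against 0.00 over all genes, where the 5th and 95th percentiles were -0.36 and 0.34. Among the 10, 2 were called and at least 2-fold lower and 4 at least 1.5-fold lower, against 1.15% and 2.32% of all genes. The groups did not overlap, with PD0332991 lower, in 7 of the 10 genes and in 19.6% of all genes. These are amounts per unit of total RNA from whole cultures, so that fewer cycling cells and less transcript per cell cannot be told apart.

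**Figure D1:**
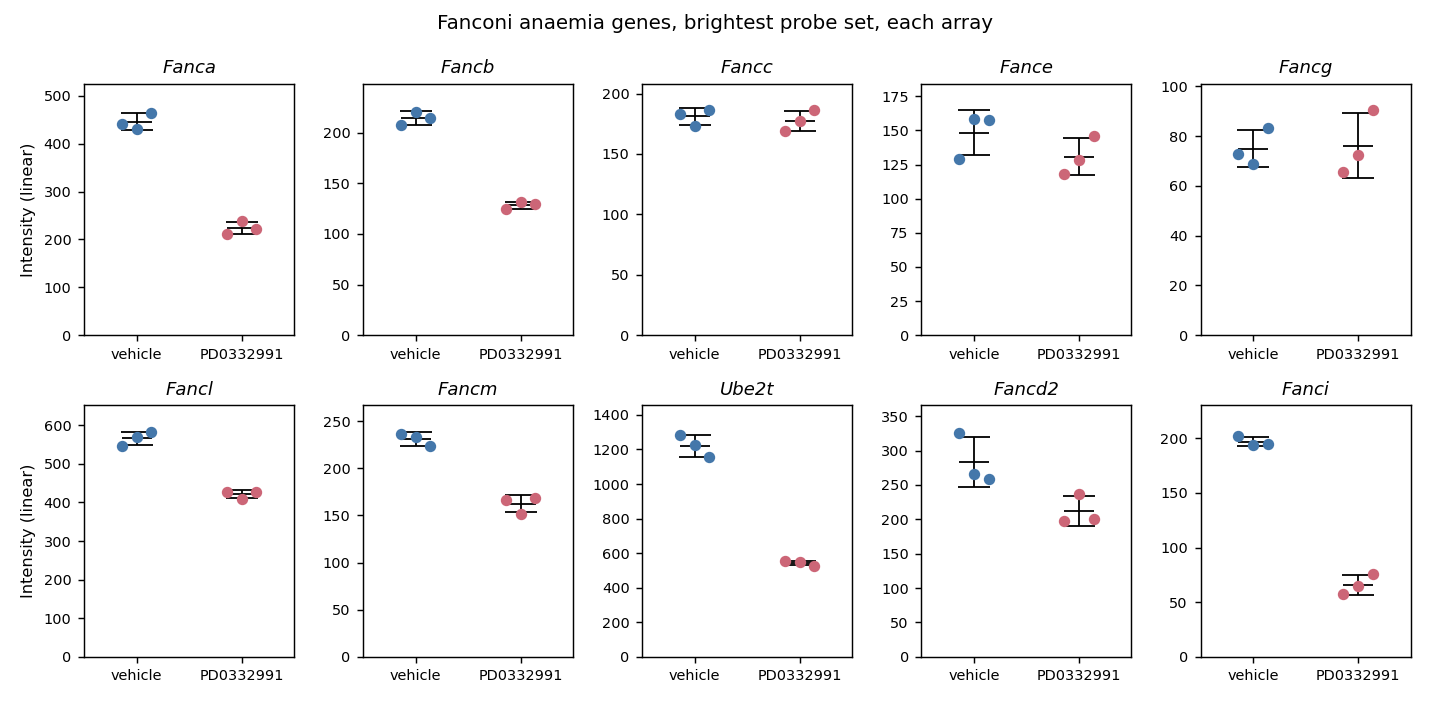
Intensity on a linear scale (vertical axis) of the brightest probe set of each of the 10 genes on every array, with points for single arrays, the middle bar for the mean and the whiskers for the SD (n = 3). The groups do not overlap in Fanca, Fancb, Fancl, Fancm, Ube2t, Fancd2 and Fanci, and overlap in Fancc, Fance and Fancg.

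Within the core complex, 4 of 7 subunit genes were called lower. Fanca, which encodes a large scaffold subunit, had intensities of 442, 431 and 465 with vehicle and 212, 238 and 223 with PD0332991. Every treated array was far below every vehicle array, and the difference was 1.93-fold (log2 fold change -0.95, SE 0.06, adjusted p = 0.000233). Fancb, an X-linked gene whose product forms a catalytic module with FANCL, read 208, 221 and 215 with vehicle and 124, 131 and 129 with PD0332991. The groups were again well apart, at 1.60-fold (log2 fold change -0.68, SE 0.04, adjusted p = 0.00026).

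Fancl, the gene of the ubiquitin ligase subunit, changed less. It read 547, 569 and 582 with vehicle and 427, 409 and 427 with PD0332991, which is 1.33-fold lower with the inhibitor (log2 fold change -0.41, SE 0.04, adjusted p = 0.00181). Fancm, which encodes the DNA translocase that anchors the complex, read 237, 233 and 223 with vehicle and 167, 152 and 169 with PD0332991. The groups did not overlap in either gene, and Fancm was 1.39-fold lower (log2 fold change -0.47, SE 0.05, adjusted p = 0.00253). With the average of a gene's probe sets in place of the brightest one, the calls of Fancl (adjusted p = 0.245) and Fancm (adjusted p = 0.0529) were lost; their other probe sets were dim, at mean intensities of 10.6 with vehicle for Fancl and 55.0 and 28.5 for Fancm.

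On their brightest probe sets, the other core subunit genes overlapped between the groups and were not called. Fancc, whose product binds the FANCE and FANCF subunits, read 184, 173 and 187 with vehicle and 169, 177 and 186 with PD0332991 (log2 fold change -0.03, 95% interval -0.15 to 0.10, adjusted p = 0.761). Its 3 probe sets had log2 fold changes of -0.03, 0.08 and -0.01, none called. A change as large as that of Fancl (-0.41) lay outside the interval of its brightest probe set.

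Fance, which encodes the subunit that contacts FANCD2, read 129, 159 and 158 with vehicle and 118, 129 and 146 with PD0332991 (log2 fold change -0.16, 95% interval -0.41 to 0.09, adjusted p = 0.336). Fancg, whose product binds FANCA, read 72.9, 68.8 and 83.4 with vehicle and 65.5, 72.6 and 90.6 with PD0332991 (log2 fold change 0.01, 95% interval -0.27 to 0.30, adjusted p = 0.953). The groups overlapped on the brightest probe set of both genes. The sign of Fancg was not stable, being negative in 7 alternatives. Its dimmer probe set read 40.2, 40.1 and 38.3 with vehicle and 21.3, 33.4 and 21.2 with PD0332991 (log2 fold change -0.44, adjusted p = 0.0552 over all probe sets). There the groups did not overlap, although the probe set missed the threshold.

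Ube2t, the gene of the enzyme that passes ubiquitin to FANCD2 and FANCI, fell 2.21-fold. Its brightest probe set read 1281, 1228 and 1154 with vehicle and 552, 548 and 527 with PD0332991 (log2 fold change -1.15, SE 0.05, adjusted p = 8.27e-05). The treated arrays lay close together and far below the lowest vehicle array. Its second, dimmer probe set was also called lower (log2 fold change -0.47, adjusted p = 0.0275 over all probe sets).

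The FANCD2-FANCI pair, which receives the ubiquitin, gave clear and unsettled changes. The brightest Fanci probe set read 202, 194 and 195 with vehicle and 57.5, 64.7 and 75.4 with PD0332991, a 2.61-fold drop there (log2 fold change -1.39, SE 0.08, adjusted p = 0.00026). No treated array came near the vehicle arrays. The other Fanci probe set was dim in both groups, with mean intensities of 19.1 and 20.2, and gave no call (adjusted p = 0.888). With the probe sets averaged, the log2 fold change of Fanci was -0.66, against -0.81 for Ube2t, and with pseudocount 64 it was -1.01 against -1.08, so the order of these 2 genes depends on both choices.

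Fancd2 had 4 probe sets that gave different sizes of change. The brightest read 326, 265 and 259 with vehicle and 198, 237 and 200 with PD0332991 (log2 fold change -0.39, SE 0.11, adjusted p = 0.0568), and although the groups did not overlap it missed the threshold. Vehicle replicate 1 was the highest of these arrays, and without it the log2 fold change was -0.29 (adjusted p = 0.105). The next brightest read 136, 149 and 131 with vehicle and 58.0, 56.0 and 61.1 with PD0332991 (log2 fold change -1.06, SE 0.06, adjusted p = 0.000244 over all probe sets), and its groups were far apart. The remaining Fancd2 probe sets were dim, at mean vehicle intensities of 18.0 and 16.1, and were not called.

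On each array, the log2 level of the second brightest Fancd2 probe set was set against that of the brightest. The difference was -0.95 ± 0.203 with vehicle and -1.61 ± 0.178 with PD0332991 (SD, n = 3 each), and it ranged from -1.17 to -0.77 and from -1.81 to -1.49. These values restate the gap between the 2 log2 fold changes array by array; an exact two-sided permutation test of 3 arrays against 3 cannot go below p = 0.1. The mean of all 4 Fancd2 probe sets was called lower (log2 fold change -0.49, adjusted p = 0.00126). Which transcripts each probe set reads was not tested; in RefSeq, Fancd2 overlaps the protein-coding gene Fancd2os and a long noncoding RNA gene.

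**Figure D2:**
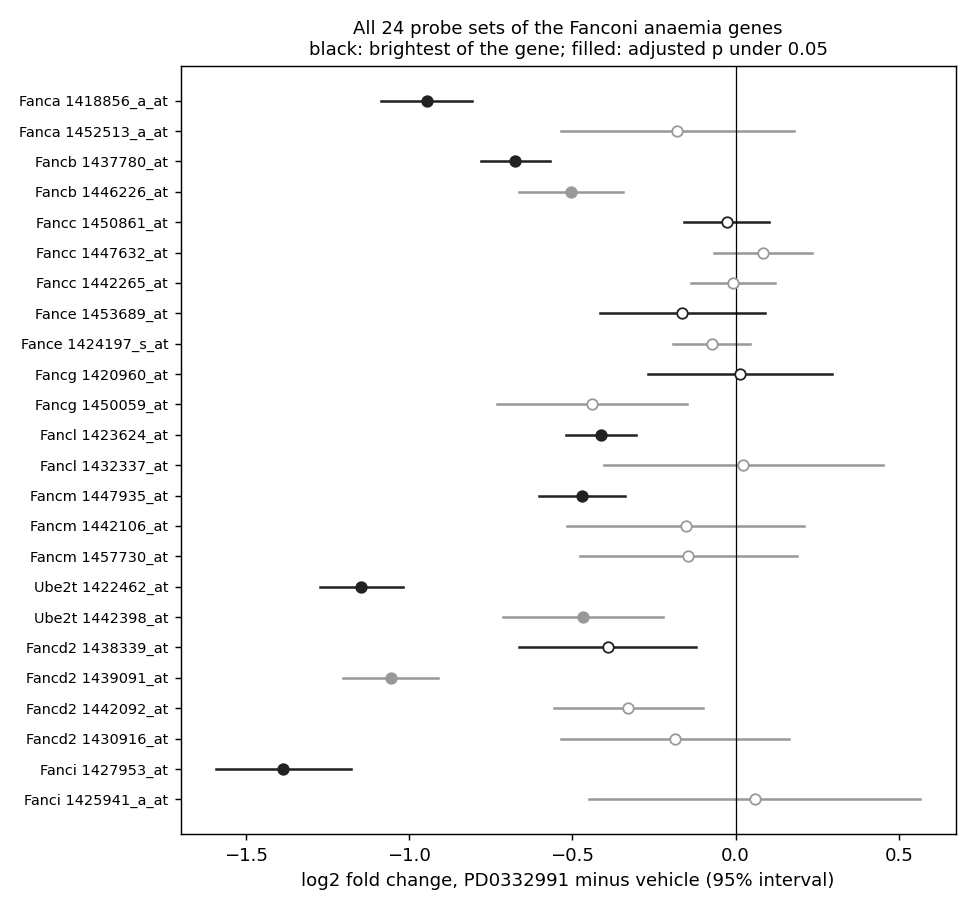
The log2 fold change of PD0332991 minus vehicle (horizontal axis) with its 95% interval for the 24 probe sets of the 10 genes, black for the brightest probe set of a gene and grey for the others, filled where the adjusted p over all probe sets was under 0.05. The brightest probe set of Fanci lies at -1.39, and the brightest Fancd2 probe set at -0.39 lies to the right of the second at -1.06.

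Taken probe set by probe set, 9 of the 24 were called lower and none higher, where 9.70% of all 34945 probe sets were called lower and 7.87% higher. The 9 belonged to 7 genes, with Fancd2 as the seventh. Ordered by log2 fold change of the brightest probe set, the genes ran from Fanci, Ube2t, Fanca, Fancb, Fancm, Fancl and Fancd2 to Fance, Fancc and Fancg. The 95% intervals of neighbours in this order overlapped, except those of Fanca (-1.08 to -0.81) and Fancb (-0.78 to -0.58). These differences are between changes, not levels, since intensities of different probe sets are not on a common scale. In RefSeq, Fanca, Fancb, Fancc, Fancd2, Fanci and Fancl overlap another protein-coding gene, and Fance, Fancg, Fancm and Ube2t do not.

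The genes lie on 10 different chromosomes and share no neighbourhood. Their promoters shared elements in part. The 7-letter E2F-type element was found in 5 of 9 promoter windows, those of Fanci, Ube2t, Fancb, Fancm and Fancg, and in 9.6% of the 32851 windows in the table. This element was added after these sequences were seen, so its share among them is a description and not a test. The windows in the table also outnumber the 18193 genes measured. The windows of Fanca and Fancl, which were called lower, held no match to these letters, and neither did those of Fancc and Fance. The 8-letter form was present in 1 window, that of Fancg, whose brightest probe set read alike in both groups, and in 2.3% of all windows. CCAAT, the binding motif of NF-Y, was found in 6 of 9 windows, 3 times in that of Ube2t, and in 37.4% of all windows; in Ube2t the match 124 bases before the start overlaps an E2F-type match. The cell cycle homology region, searched as TTTGAA or TTCGAA, was in none of the 9 and in 19.2% of all windows. A match is a run of letters and not a measured binding site.

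**Figure D3:**
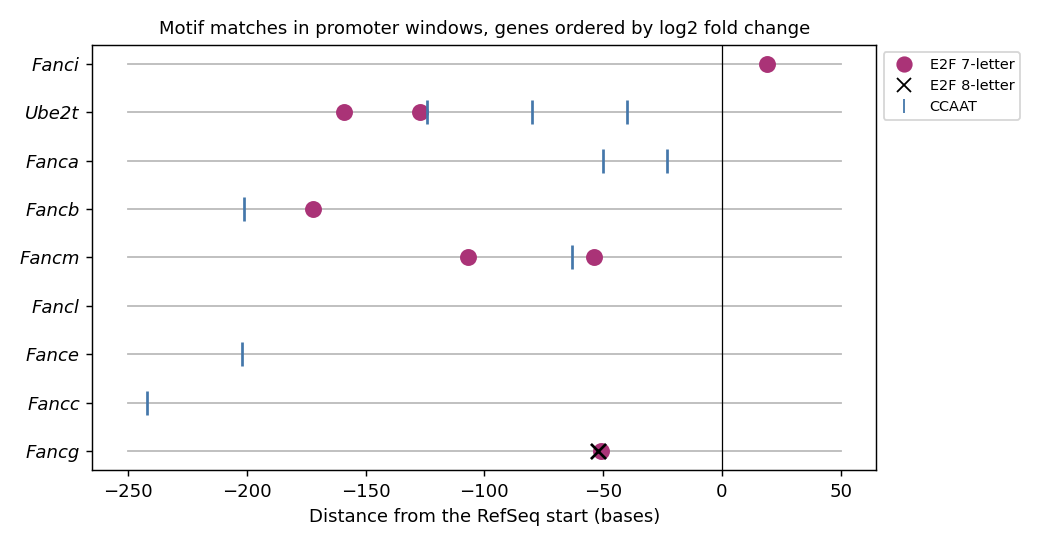
Position of motif matches relative to the RefSeq start (horizontal axis, in bases) in the windows of 9 genes, ordered from the lowest log2 fold change at the top, with circles for the 7-letter and crosses for the 8-letter E2F-type element and ticks for CCAAT. Matches of the E2F type stand in Fanci, Ube2t, Fancb, Fancm and Fancg, and the match of Fanci lies 19 bases into the transcript. The 7-letter element was added after the sequences were seen.

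Beyond the 10 genes, the pathway's partners were taken from a list of 35, of which 32 were measured. Of these, 16 fell and 1 rose, against 11.2% and 9.81% of all genes, and their median log2 fold change was -0.21. By role, 4 of 6 other core and anchoring subunits, 2 of 3 genes of deubiquitination, 6 of 6 recombination effectors and 2 of 4 genes of the BLM complex fell. Of the nucleases and their scaffold 2 of 9 fell and 1 rose, and no translesion synthesis gene was called out of 4.

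Among the other core and anchoring subunits, Cenps, which encodes a histone-fold protein that binds FANCM, fell: it read 256 ± 4.77 with vehicle and 103 ± 11.5 with PD0332991 (SD, n = 3 each; log2 fold change -1.20, adjusted p = 0.000319). Its partner Cenpx changed less (log2 fold change -0.33, adjusted p = 0.0129), as did Faap24, which binds DNA together with FANCM (-0.39, adjusted p = 0.00293). Fancf, the adaptor subunit of the core complex, was 296 ± 11.5 and 240 ± 12.8 (SD, n = 3 each; log2 fold change -0.29, adjusted p = 0.0155); it falls outside the rule for named genes and was picked with its value known. Faap100, which binds FANCB and FANCL, had a log2 fold change of -0.04 (adjusted p = 0.567), while a dimmer probe set of it was called lower (-0.26, adjusted p = 0.0421 over all probe sets).

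Usp1, which removes ubiquitin from FANCD2 and FANCI and so opposes UBE2T, read 3424 ± 85.5 with vehicle and 1768 ± 26.9 with PD0332991 (SD, n = 3 each; log2 fold change -0.95, adjusted p = 5.87e-05). All 3 Usp1 probe sets were called lower. The genes that add and remove the ubiquitin mark were thus both lower on the same arrays. Atad5, which brings the deubiquitinase to the sliding clamp PCNA, also fell (log2 fold change -0.89, adjusted p = 0.000169), while Wdr48, the cofactor of USP1, had a log2 fold change of -0.18 (adjusted p = 0.117) on its brightest probe set and was called lower on another (-0.30, adjusted p = 0.0194 over all probe sets).

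The recombination effectors had a median log2 fold change of -1.11, the lowest of the 6 partner roles. Rad51c, which acts in homologous recombination, read 273 ± 13.1 with vehicle and 72.5 ± 9.07 with PD0332991 (SD, n = 3 each; log2 fold change -1.71), and Brca1, which promotes resection of DNA ends, 803 ± 26.2 and 284 ± 24.4 (log2 fold change -1.45). Brca2, which acts in strand exchange, had a log2 fold change of -1.03 and Palb2, which links BRCA1 to BRCA2, of -0.60. Adjusted p values ran from 4.59e-05 to 0.002 over these 4 genes. In the BLM complex, which resolves joined DNA, the helicase gene Blm fell (log2 fold change -1.04, adjusted p = 0.000149) and Rmi1 fell by less (-0.23), while Top3a and Rmi2 had log2 fold changes of 0.01 and 0.15.

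Genes of the steps that cut the crosslink and bypass it were mixed. Ercc1, the partner of the XPF nuclease, rose: it read 955 ± 15.3 with vehicle and 1301 ± 51.7 with PD0332991 (SD, n = 3 each; log2 fold change 0.44, adjusted p = 0.00164), and both of its bright probe sets were called higher. That call was lost with spike-in centring and with its probe sets averaged. With spike-in centring and vehicle replicate 1 left out, 1 partner was called higher. Ercc1 overlaps the protein-coding gene Cd3eap in RefSeq. Eme1, the partner of MUS81, fell (log2 fold change -0.98, adjusted p = 0.00195), as did the crosslink nuclease gene Dclre1a on its brightest probe set (-0.24, adjusted p = 0.0159). The dimmer Dclre1a probe sets gave -0.08 and 0.04 and were not called (adjusted p = 0.54 and 0.808 over all probe sets). Dclre1b had a log2 fold change of 0.01 on its brightest probe set. Another of similar brightness gave -0.24 (adjusted p = 0.0955 over all probe sets) and a dim one 0.16, none called. In translesion synthesis, Rev1 (-0.15), Rev3l (-0.14), Mad2l2 (-0.05) and Poln (0.11) had log2 fold changes that were not called, with adjusted p from 0.0776 to 0.515.

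**Figure D4:**
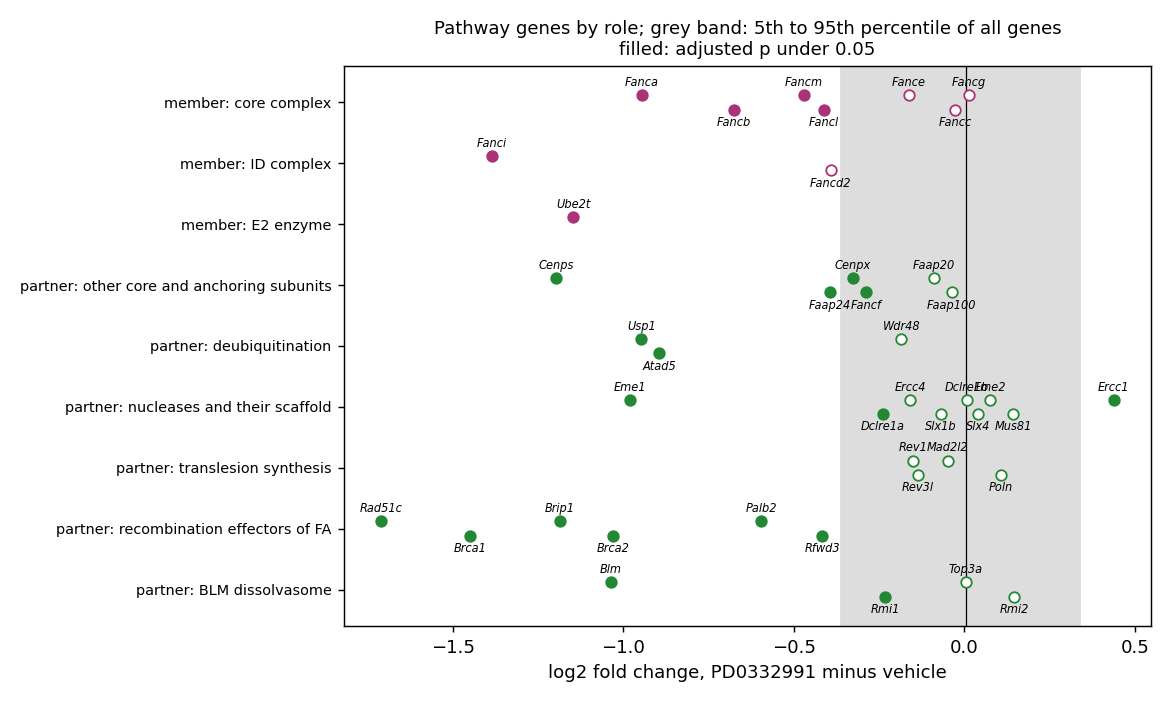
The log2 fold change of PD0332991 minus vehicle (horizontal axis) for the 10 genes (purple) and 32 measured partners (green), 1 row per role, filled where the adjusted p was under 0.05, with the grey band for the 5th to 95th percentile of all genes (-0.36 to 0.34) and the line for their median. All 6 measured recombination effectors lie to the left of the band, while translesion synthesis genes lie within it.

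Other replication and repair lists moved on the same arrays. All 14 genes of S phase and licensing fell (median log2 fold change -0.98), as did 10 of 13 core genes of homologous recombination (-0.73; 9 or 10 when 1 array was left out) and 4 of 5 mismatch repair genes (-0.48; 3 with spike-in centring or with any 1 array left out), while none of 7 housekeeping genes fell and 1 rose (median -0.01; none rose with spike-in centring or without vehicle replicate 3). The median of the 10 Fanconi anaemia genes (-0.44) stood beside these values, and no difference between lists was tested.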

How the data were processed

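Total RNA from 3 vehicle and 3 PD0332991 cultures was biotin-labelled by the standard Affymetrix procedure, per the labels' protocols. The deposited table held 1 linear intensity per array for 45101 probe sets; how values were summarised and scaled is not given in the sources used here, and no depth applies to arrays, whose number limits the precision. After 64 control probe sets, the platform annotation gave 1 symbol to 34945 probe sets, several to 932 and none to 9160; no probe set naming a Fanconi gene held several. Each of 18193 genes was represented by its probe set with the highest mean log2 value. Intensities were transformed to log2(intensity + 16), which understates the change of dim genes, and tested with lmFit and eBayes of limma 3.58.1 (R 4.3.3), as a two-sided test; p-values were adjusted by Benjamini-Hochberg over the 18193 genes, or over the 34945 probe sets where stated, with a threshold of 0.05. The procedure was run on simulated data with noise drawn independently for each gene and array. That setting cannot check deviations shared by the genes of an array. Tables and plots used Python 3.11.15, pandas 2.3.3 and matplotlib 3.10.9. Promoter windows were read from RefSeq; the 7-letter element was added after the sequences were seen. The genes and lists were chosen with earlier results of these data known. All 10 genes are named, and of each partner role up to 3 genes with the smallest p and the 1 with the largest. List entries without a single-symbol probe set were not analysed here. The alternatives were a replicate block, other normalizations, a filter on dim genes, pseudocounts of 1 and 64, other uses of probe sets, other variance models, each array left out in turn, and a threshold of 0.01.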

Additional observations from a re-analysis of the deposited data

How the results depend on the processing

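Fanci, Ube2t, Fanca and Fancb kept their call and direction in every alternative that could be run for them, although averaging probe sets moved Fanci from -1.39 to -0.66 and Fanca from -0.95 to -0.56, and Fancm and Fancl in all but averaged probe sets. The count of the 10 genes called lower was 5 to 7 over the 20 alternatives, 6 whenever 1 array was left out, and none was called higher. Fanca could not be tested without probe sets of the _a_at type, and the filter on dim genes left out Fanci, Fance and Fancg. Fancd2 was called with spike-in centring, pseudocount 64, the dim filter, the mean of its probe sets, and eBayes with trend and robust settings. Fancc had a log2 fold change of 0.017 with averaged probe sets, and from -0.060 (without PD0332991 replicate 3) to 0.0039 (without PD0332991 replicate 1) when 1 array was left out. Fancg had -0.11 with spike-in centring (-0.048 without vehicle replicate 1 as well), -0.21 with averaged probe sets and -0.0054 with array weights, and from -0.096 (without PD0332991 replicate 3) to 0.098 (without PD0332991 replicate 1) when 1 array was left out.

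Same-numbered arrays showed little shared deviation (correlations of 0.01, -0.05 and 0.05). These values cannot show whether same-numbered cultures were handled together. The replicate block gave 895 higher and 1152 lower genes over the whole array, against 1785 and 2035, with 6 of the 10 genes still called lower. Spike-in centring moved the median of all genes to -0.12 and gave 240 higher genes; without vehicle replicate 1 as well there were 412 higher and 1159 lower and the median was -0.04. A threshold of 0.01 gave 708 and 995. Leaving out 1 array gave 1096 to 1252 higher and 1326 to 1494 lower genes. The count of partners called higher was 0 with spike-in centring (1 without vehicle replicate 1 as well), 0 with the mean of probe sets and 2 with the dim filter. Partners called lower, 16 in the main test, ran from 13 (with a threshold of 0.01, among others) to 19 (eBayes with trend and robust settings). Intensities near those of the dimmest probe sets limit what the second probe sets of Fanca, Fanci and Fancl can show.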
